A study of Mus musculus with 2 samples.

Results

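Annotated nonsense-mediated decay transcripts are spliced RNAs whose annotated stop codon lies so far ahead of the last exon junction that the annotation marks them as likely targets of this decay pathway (called NMD transcripts below). The members were chosen by the reads themselves: every annotated model (deposited class Known) of the GENCODE M21 type nonsense_mediated_decay with at least 1 read in either library was taken. This gave 669 NMD transcripts in 592 genes, out of 7186 NMD transcripts in the deposited annotation and 22347 annotated models read in all. The data are long-read RNA sequencing of total RNA from the adrenal gland of male B6CASTF1/J mice aged 2 months, a hybrid of the B6 and CAST genomes, with no treatment named. There was 1 group of 2 libraries, so the study holds no contrast between conditions. The biosample labels and the library descriptions do not number the animals alike, so it is not known whether they are separate animals, and the spread may be technical.

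Nonsense-mediated decay is a cytoplasmic surveillance pathway coupled to translation. A ribosome that stops ahead of an exon junction leaves the exon junction complex downstream in place, and UPF1 with its partners then marks the RNA for degradation. Cells also use the pathway for control: many RNA-binding proteins hold a poison exon or a retained intron whose inclusion sends their own mRNA to decay. Transcripts of this type are therefore seen at a level that reflects both how much is spliced and how much survives, and read counts do not separate these.

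The reading frames behind the main results are given here on the reference (build mm10, GENCODE M21 transcript sequences), each NMD transcript above the most-read coding transcript of its gene. In each line the 30 lower-case bases are coding sequence shared by both, and capitals mark the bases after the genomic point at which the splicing parts, down to the annotated stop codon of the NMD transcript, which is its last 3 capitals. The same number of capitals, or as many as the coding sequence holds, is given for the coding transcript. These examples were chosen because they are the most-read NMD transcripts of their genes or show a poison exon of a splicing regulator.
Ddx5-208 (intron kept, stop at chr11:106783954-106783956, minus strand): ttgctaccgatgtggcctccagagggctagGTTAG
Ddx5-201 (coding): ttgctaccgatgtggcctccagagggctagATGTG
Chpt1-207 (exon extended, stop at chr10:88475405-88475407, minus strand): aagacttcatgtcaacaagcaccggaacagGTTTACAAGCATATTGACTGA
Chpt1-203 (coding): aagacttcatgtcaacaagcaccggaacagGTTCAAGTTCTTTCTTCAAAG
Tk2-202 (exon skipped, stop at chr8:104231228-104231230, minus strand): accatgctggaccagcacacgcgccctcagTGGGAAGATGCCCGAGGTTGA
Tk2-201 (coding): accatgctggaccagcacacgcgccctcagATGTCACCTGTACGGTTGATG
Yaf2-202 (exon added, stop at chr15:93317554-93317556, minus strand): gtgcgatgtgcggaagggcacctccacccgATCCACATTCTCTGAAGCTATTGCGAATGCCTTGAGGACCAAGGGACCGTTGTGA
Yaf2-201 (coding): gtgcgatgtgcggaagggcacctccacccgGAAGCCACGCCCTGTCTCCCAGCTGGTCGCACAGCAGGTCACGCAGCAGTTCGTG
E2f6-204 (exon added, stop at chr12:16813877-16813879, plus strand): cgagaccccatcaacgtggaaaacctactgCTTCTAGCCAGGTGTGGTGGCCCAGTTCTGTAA
E2f6-201 (coding): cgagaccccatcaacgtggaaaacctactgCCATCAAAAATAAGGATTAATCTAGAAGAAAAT
Cbarp-212 (exon added, stop at chr10:80136703-80136705, minus strand): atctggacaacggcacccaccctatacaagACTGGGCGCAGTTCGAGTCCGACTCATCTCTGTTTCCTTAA
Cbarp-201 (coding): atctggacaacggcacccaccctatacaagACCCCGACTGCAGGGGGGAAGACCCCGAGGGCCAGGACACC
Pcnp-206 (exon extended, stop at chr16:56024579-56024581, minus strand): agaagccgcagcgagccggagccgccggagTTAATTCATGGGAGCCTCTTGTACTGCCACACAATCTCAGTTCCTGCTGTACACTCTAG
Pcnp-202 (coding): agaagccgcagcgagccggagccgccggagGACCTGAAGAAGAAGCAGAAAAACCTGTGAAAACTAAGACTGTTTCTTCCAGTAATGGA
Srsf3-201 (exon added, stop at chr17:29039485-29039487, plus strand): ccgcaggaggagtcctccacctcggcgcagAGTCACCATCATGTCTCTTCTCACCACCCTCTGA
Srsf3-202 (coding): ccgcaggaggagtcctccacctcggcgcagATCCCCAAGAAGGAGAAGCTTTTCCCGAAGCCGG
Tra2b-206 (exon added, stop at chr16:22259181-22259183, minus strand): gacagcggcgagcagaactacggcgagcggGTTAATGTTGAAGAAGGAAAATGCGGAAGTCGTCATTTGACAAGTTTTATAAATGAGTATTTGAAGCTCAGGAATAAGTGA
Tra2b-204 (coding): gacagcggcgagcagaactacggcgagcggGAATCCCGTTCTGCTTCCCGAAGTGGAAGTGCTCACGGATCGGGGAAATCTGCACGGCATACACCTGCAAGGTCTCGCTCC

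NMD transcripts took a very small part of the reads. They held 1682 of 824225 gene-assigned reads in replicate 1, a share of 0.204% (Wilson 95% interval 0.195 to 0.214), and 1574 of 656826 in replicate 2, a share of 0.240% (0.228 to 0.252). The mean was 0.222 ± 0.0251% (SD, n = 2). Without Ddx5-208, the most-read of them, the shares were 0.192% (0.182 to 0.201) in replicate 1 and 0.205% (0.195 to 0.216) in replicate 2, so the gap between the libraries lay largely in that transcript. Annotated retained-intron transcripts, which end in or span an unspliced intron and carry no coding sequence, took more at 0.663% and 0.646%, and annotated coding transcripts took 74.2% and 74.1%. These intervals, like all below, measure counting error alone, as the tables hold no molecular identifiers.

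Most NMD transcripts were seen by a handful of reads. Of the 669, 275 (41.1%) had exactly 1 read over both libraries, which is the value just inside the choice, and the other 6517 annotated NMD transcripts had 0. A transcript at 0 could still have a level of up to 3 reads, which is 3.64 CPM in replicate 1 and 4.57 CPM in replicate 2. The median was 2 reads, 160 had at least 5 reads, 63 at least 10 and 5 at least 50. Reads were found on 502 NMD transcripts in replicate 1, on 453 in replicate 2 and on 286 in both. In the 5334 genes that had 20 reads or more in both libraries (deep genes from here on), 426 of 2665 annotated NMD transcripts were read, or 16.0%, close to the 16.2% of retained-intron transcripts and below the 50.2% of coding transcripts. The evidence grade of the annotation moved with this share: 194 of 607 NMD transcripts of support level 1, the best grade, were read in deep genes (32.0%), against 8.29% at level 3 and 8.83% at level 5. Support level 1 held 60.4% of all NMD reads.

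**Figure D1:**
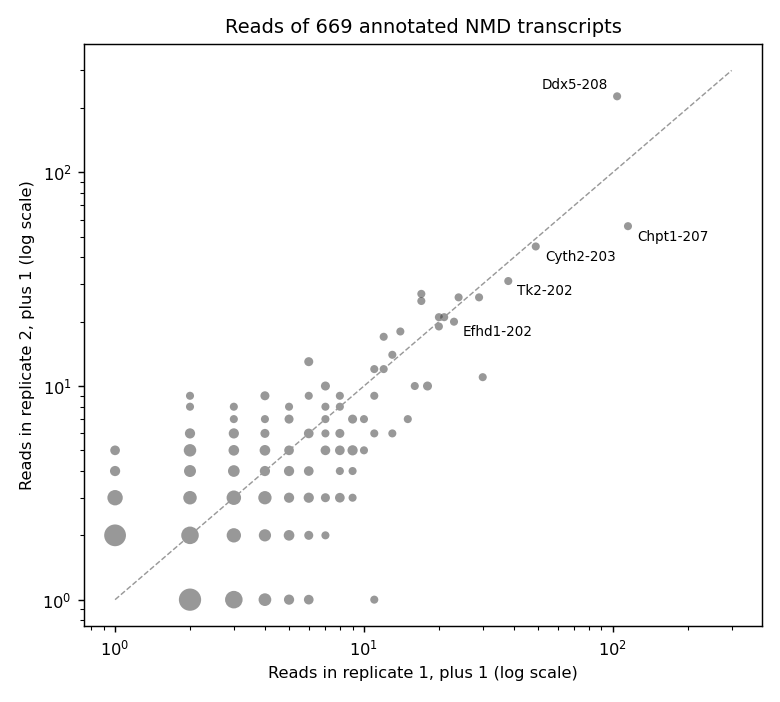
Reads of each NMD transcript in replicate 1 (x axis) and replicate 2 (y axis), both plus 1 and on log scales, with larger points where several transcripts share a value and a dashed line of equal counts. Ddx5-208 lies above the line at 103 and 226 reads, Chpt1-207 below it at 114 and 55, and most of the 669 transcripts sit at a few reads.

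Reads were concentrated on a few genes. Ddx5-208 alone held 10.1% of all NMD reads, the 10 most-read transcripts held 28.3% and the 50 most-read held 50.1%. Ddx5 encodes a DEAD-box RNA helicase that acts in splicing and transcription. Its NMD transcript had 103 reads in replicate 1 and 226 in replicate 2. Chpt1-207 followed with 114 and 55 reads in replicates 1 and 2. Chpt1 encodes the choline phosphotransferase of phosphatidylcholine synthesis. Cyth2-203 had 48 and 44 reads, and Cyth2 encodes cytohesin 2, an exchange factor for ARF GTPases. Tk2-202, from the mitochondrial thymidine kinase gene, had 37 and 30 reads, and Yaf2-202, from a gene of Polycomb repressive complex 1, had 28 and 25. These transcripts of Cyth2, Tk2 and Yaf2 were read at a similar level in both libraries, unlike those of Ddx5 and Chpt1.

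The next 10 most-read NMD transcripts came from genes of varied function. E2f6-204, from a gene for an E2F-family repressor, had 23 reads in replicate 1 and 25 in replicate 2. Cbarp-212, from a gene for a regulator of voltage-gated calcium channels, had 16 and 26. Efhd1-202, from a gene for a mitochondrial calcium-binding protein, had 22 and 19. They were followed by Crebzf-205 (a bZIP transcription factor gene) with 16 and 24 reads, Tmem234-210 with 20 and 20, and Iscu-205 (the scaffold protein of iron-sulfur cluster assembly) with 19 and 20. Ndufa7-202, from a gene for a complex I subunit, had 29 and 10 reads. Ncaph2-209 (a condensin II subunit) had 19 and 18 reads, Pcnp-206 (a nuclear protein) 13 and 17, and Zfand5-204 (a zinc finger protein) 11 and 16. Of these 10, only Ndufa7-202 differed more than 2-fold in reads between the libraries, and its gene differed likewise, with 362 reads in replicate 1 and 165 in replicate 2.

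A gene's NMD share was measured as the reads of its NMD transcripts over all reads assigned to the gene, in deep genes. NMD transcripts were read in 371 deep genes, which is 22.9% of the 1621 deep genes that have an annotated NMD transcript. The median of their mean shares was 2.10% (quartiles 0.935 and 4.46), with medians of 2.14% in replicate 1 and 2.20% in replicate 2. A mean share of at least 1% was found in 270 genes, at least 5% in 87, at least 10% in 36, at least 20% in 15 and at least 50% in 2. Since a gene entered only with at least 1 NMD read, its share could not fall below what 1 read gives, and the median fell with depth: 2.68% in genes with 40 to 100 reads in sum, 2.02% with 100 to 300, 0.673% with 300 to 1000 and 0.112% in the 11 genes with 1000 or more. Of the 371 genes, 183 had NMD reads in 1 library only. In 370 genes the intervals of the libraries overlapped, and the exception was Ddx5. At so few NMD reads per gene the intervals are wide, so overlap is no sign that the libraries agree. The same count was not made for other transcripts.

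**Figure D2:**
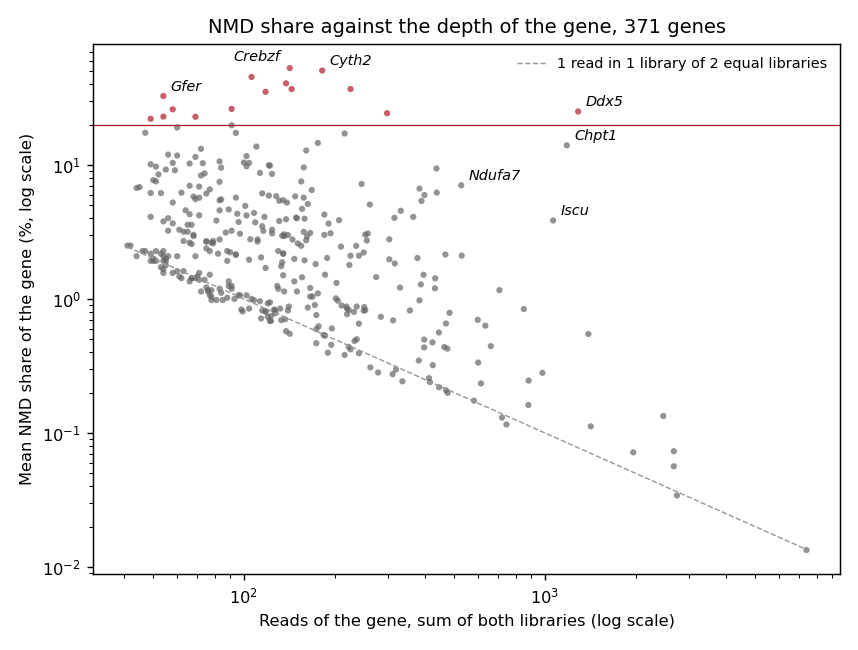
Mean NMD share of each of 371 deep genes (y axis, %, log scale) against the reads of the gene summed over both libraries (x axis, log scale). The dashed line is the share that 1 read gives when both libraries hold the gene equally, the horizontal line marks 20%, and the 15 genes above it (red) include Ddx5 as the only one with 1000 reads or more.

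In 15 genes NMD transcripts made up a mean of at least 20% of the gene's reads, and in 9 of these the share was at least 20% in each library. This threshold is a round value and these genes were ranked on the same reads, so their shares are a description. The reads per gene were modest, between 22 and 684 in a library.

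Crebzf and Cyth2 had the highest shares. In Crebzf, 34 of 69 reads in replicate 1 (49.3%, interval 37.8 to 60.8) and 41 of 73 in replicate 2 (56.2%, 44.8 to 67.0) lay on 3 NMD transcripts. All 3 splice out an intron after the stop codon of the coding transcript Crebzf-201, which had 31 and 30 reads. In Cyth2, 48 of 92 reads (52.2%, 42.1 to 62.1) and 44 of 90 (48.9%, 38.8 to 59.0) lay on Cyth2-203, against 35 and 31 on the coding transcript Cyth2-202.

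The Cyth2 value needs its splice site beside it. Cyth2-203 differs from Cyth2-202 only by a 5′ splice site 4 nt further downstream, at the intron chr7:45808450-45810126, which adds the bases GTAC and shifts the frame. The annotation also holds, inside that intron, an exon of 3 nt (chr7:45808730-45808732, bases GAG) in the coding transcript Cyth2-209. Use of such a short exon is known for cytohesins, where it adds a glycine to the lipid-binding PH domain. Cyth2-209 had 0 reads in both libraries. The reference sequences, with capitals after the shared bases, differ only in these inserted bases over the stretch shown.
Cyth2-203 (stop at chr7:45808383-45808385, minus strand): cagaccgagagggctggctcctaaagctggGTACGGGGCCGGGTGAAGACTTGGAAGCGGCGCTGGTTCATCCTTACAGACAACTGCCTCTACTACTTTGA
Cyth2-202 (coding): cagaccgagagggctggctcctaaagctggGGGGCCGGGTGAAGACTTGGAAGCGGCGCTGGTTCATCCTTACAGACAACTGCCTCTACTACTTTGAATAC
Cyth2-209 (coding, with the 3-nt exon): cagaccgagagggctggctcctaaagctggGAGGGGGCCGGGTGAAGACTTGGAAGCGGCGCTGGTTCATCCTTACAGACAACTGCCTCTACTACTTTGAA
The tables hold counts and no read sequences, so whether reads with the 3-nt exon were counted on the 4-nt shift was not tested.

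E2f6, Pcnp, Tmem234, Yaf2 and Cbarp followed, and of these the first 4 had shares within 3 percentage points of each other in the libraries. E2f6-204 held 23 of 51 reads (45.1%) and 25 of 55 (45.5%), more than the most-read coding transcript E2f6-201 with 16 and 12 reads. In Pcnp, 30 of 73 reads (41.1%) and 26 of 65 (40.0%) lay on 2 NMD transcripts that use different 3′ splice sites of the same exon, one 199 nt before and the other 52 nt after that of Pcnp-202. Tmem234 had the most NMD transcripts of any deep gene, 6 in all, which together held 46 of 127 reads (36.2%) and 37 of 99 (37.4%). Yaf2-202 held 28 of 74 reads (37.8%) and 25 of 70 (35.7%), through an added exon of 70 nt. Cbarp-212 held 16 of 52 reads (30.8%) and 26 of 66 (39.4%), while coding transcripts of Cbarp held 3 reads in each library and the other reads were on models outside the annotation. Counted over annotated models alone, the mean share of Cbarp was 86.9%, against 35.1% over all its reads.

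**Figure D3:**
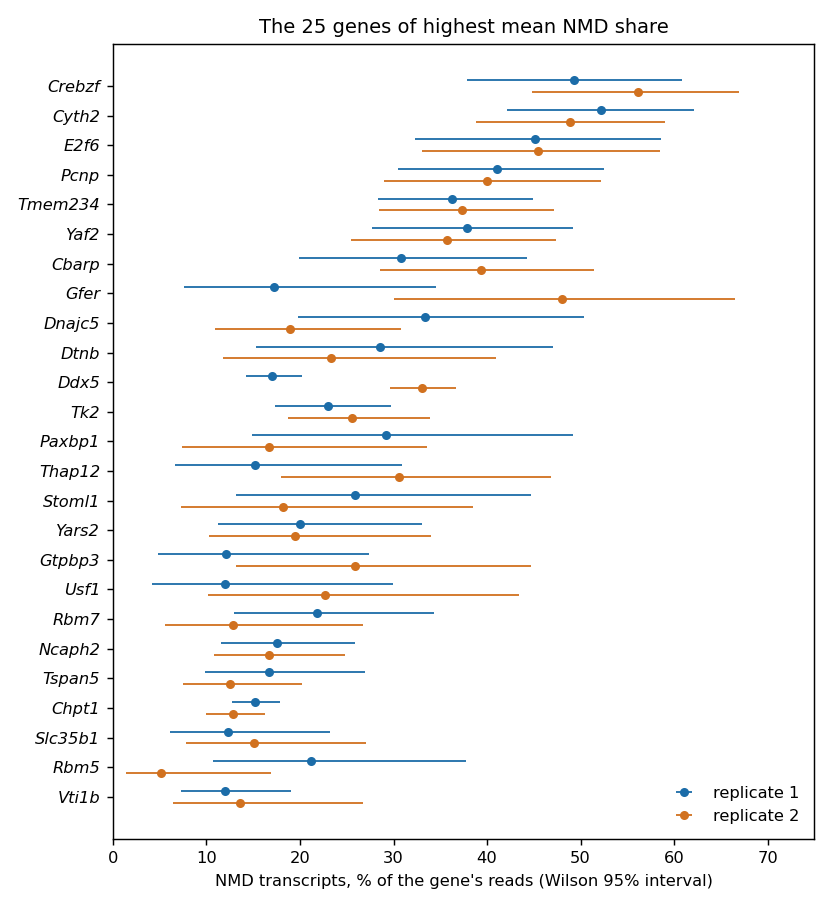
NMD share of the gene (x axis, % of the gene's reads) in replicate 1 (blue) and replicate 2 (orange) for the 25 genes of highest mean share, with Wilson 95% intervals as bars. In Ddx5 the intervals do not overlap, at 17.0% and 33.0%, and in genes with few reads they are wide.

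The other 8 genes of at least 20% had mean shares between 22.1% and 32.6%. Ddx5 is described with the test between the libraries. Tk2 had an NMD share of 40 of 174 reads in replicate 1 (23.0%) and 32 of 125 in replicate 2 (25.6%). Dtnb, which encodes a dystrobrevin of the dystrophin complex, had 8 of 28 (28.6%) and 7 of 30 (23.3%), with coding transcripts at 0 and 1 read and most reads on new combinations of known splice sites. Over annotated models alone its mean share was 93.8%, against 26.0% over all its reads. Dnajc5, for a co-chaperone of secretory vesicles, had 11 of 33 (33.3%) and 11 of 58 (19.0%). Gfer, for a sulfhydryl oxidase of mitochondrial protein import, had 5 of 29 (17.2%) and 12 of 25 (48.0%), a gap whose intervals still overlapped. Paxbp1 (29.2% and 16.7%), Thap12 (15.2% and 30.6%) and Stoml1 (25.9% and 18.2%, a stomatin-like protein) each had 12 or fewer NMD reads in either library. Stoml1 lay just inside the threshold with a mean of 22.1%, and the mitochondrial tyrosyl-tRNA synthetase gene Yars2 just outside it at 19.8%.

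The 10 genes that completed the 25 of highest share ranged from a mean of 19.8% down to 12.8%. They were Yars2, Gtpbp3 (a mitochondrial tRNA-modifying GTPase), Usf1 (a transcription factor), Rbm7 (a subunit of a nuclear exosome adaptor), Ncaph2, Tspan5 (a tetraspanin), Chpt1, Slc35b1 (a transporter of the endoplasmic reticulum), Rbm5 (a splicing regulator) and Vti1b (a SNARE protein). Chpt1 was by far the deepest of these, with 114 of 752 reads (15.2%, interval 12.8 to 17.9) in replicate 1 and 55 of 430 (12.8%, 9.96 to 16.3) in replicate 2, so its lower count in replicate 2 went with a lower count of the whole gene. Ncaph2 was close between the libraries at 17.6% and 16.7%. Rbm5 was not, at 7 of 33 reads (21.2%) and 2 of 39 (5.13%), with overlapping intervals.

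**Figure D4:**
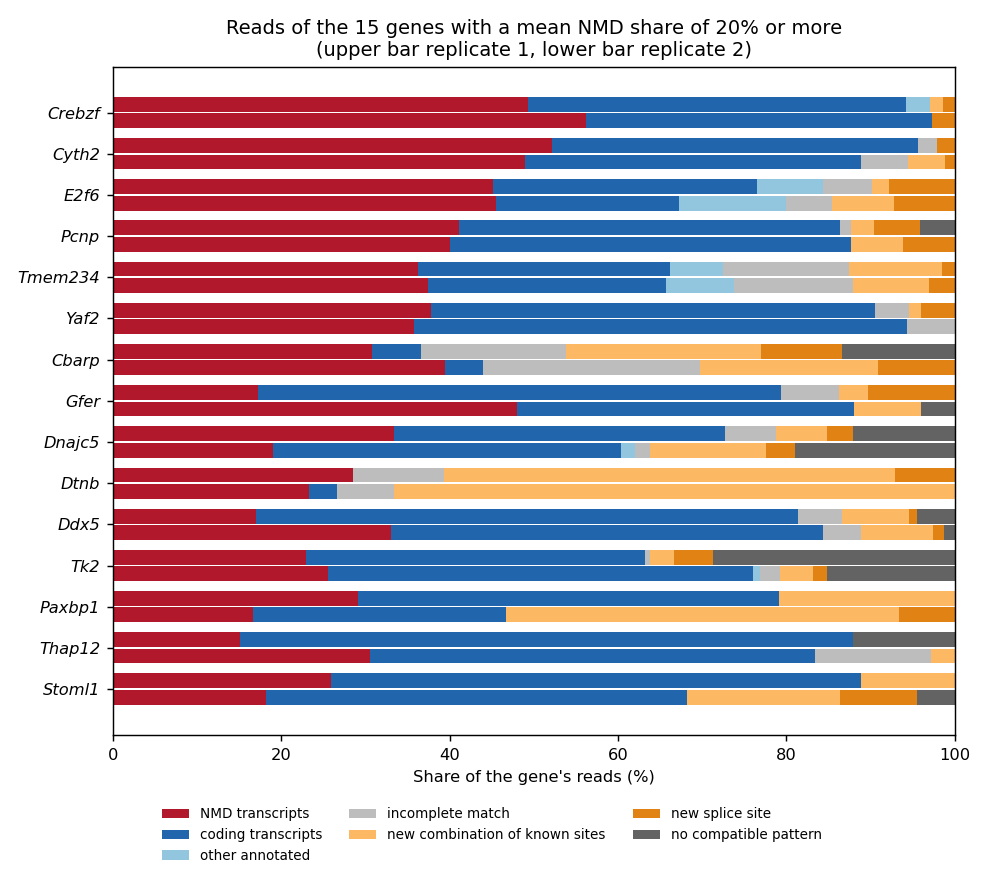
Share of each gene's reads (x axis, %) by kind of transcript for the 15 genes with a mean NMD share of 20% or more, upper bar replicate 1 and lower bar replicate 2. NMD transcripts (red) reach 49.3% and 56.2% in Crebzf; in Cbarp and Dtnb coding transcripts (dark blue) hold few reads and models outside the annotation (orange and grey) the rest.

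An NMD transcript was the most-read annotated transcript of its gene in 47 cases, of which 8 were in deep genes. Besides Cyth2-203, E2f6-204, Cbarp-212 and Dtnb-204, these were Acbd4-202, Mtg2-207, Trak1-212 and Uckl1-203, named because they complete the count. The last 4 had 8, 5, 3 and 1 reads over both libraries, so their genes were read mainly on models outside the annotation.

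The share of 1 NMD transcript was higher in replicate 2. Across all annotated transcripts with at least 10 reads in sum in deep genes, 18 of 6565 (0.274%) were called between the libraries by Fisher's exact test (two-sided, Benjamini-Hochberg adjustment over all 6565, share apart by 10 percentage points or more). Of the 50 NMD transcripts among them 1 was called, and no statement on NMD transcripts as a class follows from 1 call. It was Ddx5-208, with 226 of 684 reads in replicate 2 (33.0%, interval 29.6 to 36.7) and 103 of 605 in replicate 1 (17.0%, 14.2 to 20.2), a difference of 16.0 percentage points (adjusted p = 3.73e-08). The coding transcript Ddx5-201 went the other way, with 51.3% in replicate 2 and 64.3% in replicate 1 (adjusted p = 0.00151, the same Fisher's exact test). At an unadjusted p under 0.05 there were 2 NMD transcripts of 50 (4%), the other being Gfer-204 (adjusted p = 0.570 by the same test), and 449 of all 6565 (6.84%). The test compares these libraries only, and its p-values treat reads as independent.

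Ddx5-208 keeps an intron of 1265 nt (chr11:106782694-106783958) that Ddx5-201 removes, and the frame stops 5 bases into it, as the sequences above show. At 3593 nt it is close in length to Ddx5-201 at 3559 nt, although it holds this intron. It therefore lacks sequence elsewhere that Ddx5-201 holds, and the models differ by more than the intron. Annotated retained-intron transcripts as a type held 0.646% of reads in replicate 2 and 0.663% in replicate 1. Ddx5-208 is not of that type. Of the 1972 retained-intron models set against a coding transcript, 367 differed by a kept intron alone, so the type is no measure of kept introns. Total RNA was sequenced, so transcripts still in the nucleus are counted with those in the cytoplasm. Their part in the Ddx5-208 difference was not tested.

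The structure of the NMD transcripts, which the choice by reads did not use, was set against the most-read coding transcript of each gene. A read coding transcript was available for 646 of them, and 566 (87.6%) differed by a single kind of splicing change, in some cases at more than 1 exon or site. Skipped exons were most frequent with 161 transcripts (24.9%, a lone exon in 141), then added exons with 123 (19.0%, a lone exon in 120), another 3′ splice site with 120 (18.6%) and another 5′ splice site with 103 (15.9%). The 5408 further coding transcripts, those read besides the most-read coding transcript of any gene, had a skipped exon in 13.8% and an added exon in 10.9%, and more often another first exon (0.929% of NMD transcripts against 22.9% of further coding transcripts) or another last exon (3.41% against 10.1%). These percentages are descriptions, since the annotation type is itself assigned from the structure.

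**Figure D5:**
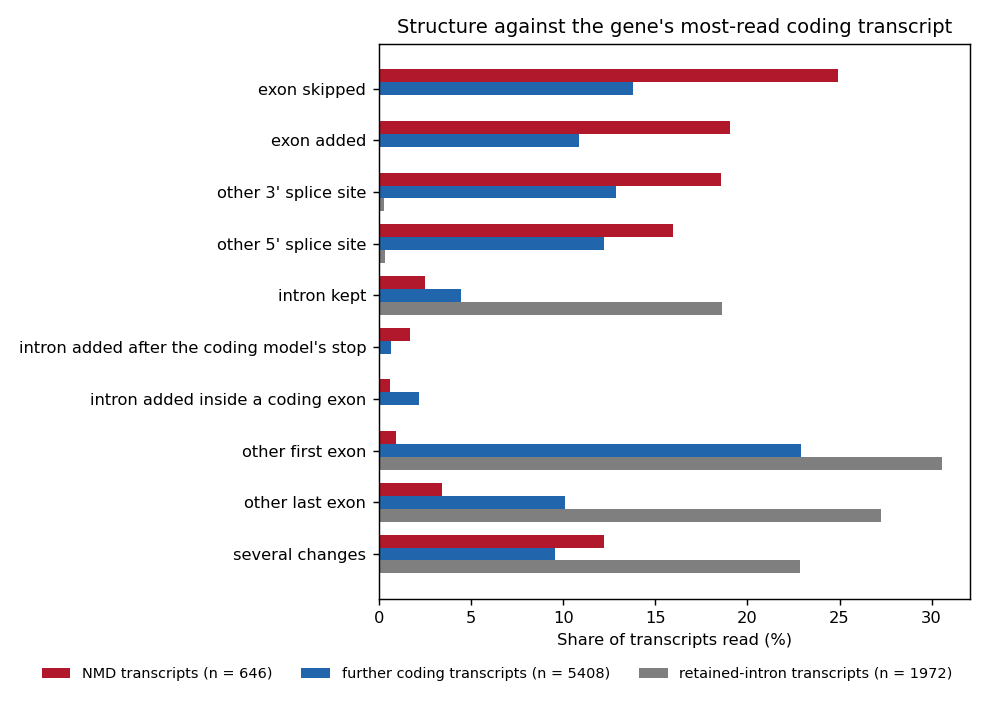
Share of transcripts read (x axis, %) in each class of structural difference from the gene's most-read coding transcript (y axis), for NMD transcripts (red), further coding transcripts (blue) and retained-intron transcripts (grey). Skipped exons make up 24.9% of NMD transcripts and 13.8% of further coding transcripts, and other first exons 0.929% and 22.9%.

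Reads were spread over the classes in other proportions than transcripts. The most-read NMD transcript with a skipped exon was Tk2-202, which lacks an exon of 74 nt (chr8:104236772-104236845), and skipped exons held 599 reads in all. Added exons held 606 reads, led by Yaf2-202 (chr15:93317539-93317608). Other 3′ splice sites held 465, led by Pcnp-206, and other 5′ splice sites 669, led by Chpt1-207, whose exon runs on by 93 nt. The 16 NMD transcripts with a kept intron held 370 reads, of which 329 were on Ddx5-208. The 11 with an intron spliced out after the coding stop held 110, led by Efhd1-202. Iscu-205 led the 6 with another first exon, Hnrnpa1-203 the 22 with another last exon, Crebzf-207 the 79 with several changes and Ric8a-211 the 4 with an intron inside a coding exon. Tor1b-206 had the same introns as its coding transcript, and Hyi-202 led the 23 without a read coding transcript.

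Skipped and added exons reached their stop in different ways. Much of this is set by the annotation, as the type requires an early stop and a skipped exon brings no new sequence. The counts are therefore a description. Of the 161 transcripts with skipped exons, 160 lost a length that is not a multiple of 3, with a median of 112 nt. In 149 of 150 with a shared start codon the stop then lay in sequence that the coding transcript also holds, read in another frame, as in Tk2-202. Of the 123 with added exons, 85 (69.1%) gained a length that is not a multiple of 3, with a median of 108 nt. In 96 of 112 the stop lay inside sequence that the coding transcript lacks. E2f6-204 and Cbarp-212 gain exons of 66 and 54 nt, which are multiples of 3, and stop within them.

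Over all 576 NMD transcripts that share the start codon of the coding transcript, 346 (60.1%) stopped in shared sequence and 200 (34.7%) in sequence of their own, while 26 (4.51%) used the coding transcript's own stop. Efhd1-202 and Gfer-204 are of the last kind: their coding sequence is whole, and an intron removed after the stop puts a junction behind it. Among those that stopped elsewhere, the stop ended a median of 41 nt after the splicing parted (quartiles 19 and 86.8), and a median of 27.0% of the coding sequence lay before that point. The shared part was 65.8% in Ddx5-208 and 96.3% in Chpt1-207 but 13.2% in E2f6-204 and 4.99% in Ncaph2-209. The stop lay more than 50 nt ahead of the last junction in 665 of 669 NMD transcripts (median 335 nt) and in 59 of 16462 coding transcripts (0.358%), which is what defines the type. NMD transcripts were shorter than their coding transcripts in 498 pairs and longer in 148, with median lengths of 1782.5 and 2496.5 nt.

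Small shifts were counted apart, as long reads are known to place a junction less surely when another site lies within a few bases. Of 223 NMD transcripts that differ by another splice site alone, 37 lay within 10 nt of the coding site, and these held 213 reads, 92 of them on Cyth2-203. Another was Tesc-202 (24 reads, 5 nt), named after its values were seen. Cyth2-203 was the only one of the 37 with an annotated exon of at most 10 nt inside the coding intron. The annotation itself limits some assignments: 8 NMD transcripts (46 reads) have exactly the introns of a coding transcript and 7 (17 reads) a part of them, so only ends separate them, and 57 (203 reads) have no annotated start codon.

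Genes for splicing regulators held a larger part of their reads on NMD transcripts than the 0.210% in replicate 1 and 0.247% in replicate 2 found over all annotated genes. More of them also have an annotated NMD transcript, so these pooled shares are not directly comparable. Each of their NMD transcripts other than Ddx5-208 had few reads. For serine/arginine-rich splicing factors and Tra2 proteins, 10 of 11 deep genes had an annotated NMD transcript, beside 1621 of all 5334 deep genes. In 5 of these 10 such a transcript was read, beside 22.9% of all deep genes with an annotated one. Their 6 NMD transcripts held 15 of 1095 reads in replicate 1 (1.37%) and 12 of 1085 in replicate 2 (1.11%), with a median share of 2.14% over those 5 genes beside 2.10% over the 371. Srsf2-202 had 4 and 4 reads, Srsf3-201 4 and 3, Srsf6-201 4 and 0 and Tra2b-206 2 and 3. The last 3 each add an exon to the coding transcript: 456 nt in Srsf3 (chr17:29039454-29039909), 268 nt in Srsf6 (chr2:162932815-162933082) and 276 nt in Tra2b (chr16:22258986-22259261), with the stop inside the exon as printed above for Srsf3 and Tra2b. Srsf2-202 has the introns of a coding transcript and is one of the 8 named above.

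For hnRNP genes, whose products bind nascent RNA, 11 of 20 deep genes had an annotated NMD transcript. Their list held 9 NMD transcripts with 25 of 3246 reads (0.770%) and 16 of 2809 (0.570%). The median share was 1.70% over the 6 deep genes with NMD reads, beside 2.10% over the 371. Hnrnpa1-203 had 9 and 4 reads, Hnrnpdl-201 7 and 5, Hnrnpa2b1-207 4 and 1, and Hnrnpa2b1-209 0 and 3. The mean share was 9.87% in Hnrnpdl, through an added exon of 105 nt. Among other RNA-binding and splicing genes, 26 of 36 deep genes had an annotated NMD transcript, and the median share was 2.87% over the 12 with NMD reads. In this list 17 NMD transcripts held 133 of 3473 reads (3.83%) and 253 of 3368 (7.51%), of which 103 and 226 reads were on Ddx5-208. The next were Rbm39-225 with 5 and 12 reads, Rbm5-210 with 7 and 2 and Luc7l-206 with 3 and 2. For the genes of the decay pathway and the exon junction complex itself, 1 of 11 deep genes had an annotated NMD transcript, so few could be read. NMD reads numbered 1 of 805 (0.124%) and 1 of 691 (0.145%), on Magohb-203 in replicate 1 and Dcp1a-209 in replicate 2, and neither gene was deep.

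Ribosomal protein, translation factor and polyamine genes held few NMD reads. The 7 NMD transcripts of cytosolic ribosomal protein genes held 11 of 23478 reads (0.0469%) and 6 of 13046 (0.0460%), led by Rpl13a-216 with 3 and 2, Rps19-205 with 3 and 1, and Rpl12-201 with 2 and 0. Translation factor genes had 1, Eif4a2-210, with 2 of 8025 reads (0.0249%) and 2 of 6690 (0.0299%). Polyamine genes had 1, Sat1-207, with 2 of 2232 reads (0.0896%) and 0 of 1785. Over all annotated genes the same share was 0.210% and 0.247%, and the polyamine genes have too few reads to be called lower. An annotated NMD transcript was present in 19 of 79 deep ribosomal protein genes, 7 of 28 translation factor genes and 5 of 9 polyamine genes. One was read in 5 of the 19, 1 of the 7 and 1 of the 5, beside 22.9% over all deep genes with an annotated one. The pooled shares are thus not directly comparable, and do not show that NMD transcripts were read in fewer of these genes.

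For oxidative phosphorylation genes 7 NMD transcripts held 59 of 38773 reads in replicate 1 (0.152%) and 15 of 17898 in replicate 2 (0.0838%). Ndufa7-202 had 29 and 10 reads, Ndufs6-202 10 and 0, Ndufs4-202 8 and 2 and Ndufa3-204 6 and 2. These are the 4 most-read of the 7, and come from subunits of complex I, the first enzyme of the respiratory chain. The rest include Atp5o-206 and Cox6b2-207, from genes of other complexes. An annotated NMD transcript was present in 20 of 78 deep genes of the list and was read in 6 of them, with a median share of 2.99%. All 4 named transcripts had more reads in replicate 1, as the whole group of genes did. Ndufa7-202, Ndufs6-202 and Ndufs4-202 had the 10 reads that the test needs, and none of these 3 was called between the libraries in its share of the gene. Fat-cell markers moved the same way, at 1.83% of reads in replicate 1 and 1.02% in replicate 2 over 8 genes, none of them at 0 in both. Erythroid markers did so too, at 0.195% in replicate 1 and 0.0819% in replicate 2 over 5 genes, none of them at 0 in both. The part of these cells in this difference was not tested.

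The genes that define the tissue have few annotated NMD transcripts, and held few NMD reads. For steroid synthesis and cholesterol delivery, 22 genes were deep and 3 of these had an annotated NMD transcript, beside 1621 of all 5334 deep genes. Such a transcript was read in 1 of the 3, too few genes to set beside the 22.9% of all deep genes with an annotated one. NMD reads over the list numbered 9 of 69760 (0.0129%) and 6 of 58813 (0.0102%). All were on Mrap, which encodes the accessory protein of the ACTH receptor: Mrap-204 had 8 and 4 reads and Mrap-202 1 and 2. The mean share of the gene was 4.09%, beside the median of 2.10% over all 371 genes. That median falls with depth, and Mrap had 187 and 178 reads. In its range of 300 to 1000 reads in sum the median was 0.673% and the highest share 9.40%. Of 15 deep chromaffin-cell genes 2 had an annotated NMD transcript and 1 had one read, Resp18-202 with 0 and 1 read. Cortex markers made up 6.47% and 6.77% of all reads and chromaffin markers 1.13% and 1.24%, while kidney markers had 7 and 6 reads and liver markers 0 and 2. The libraries thus carried the tissue that the labels name, together with fat-cell markers at 1.83% and 1.02%.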

How the data were processed

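Counts of reads per transcript model were used as deposited by the authors, whole numbers with no normalization, 1 table per library. Per the deposited notes, reads were aligned to mm10 and annotated against GENCODE M21. Per the deposited annotation, TALON wrote the models. What aligned the reads, on which platform and in which versions was not given in the sources used here. A read counts as Known only when all its splice junctions match an annotated model, so reads cut short fall into other classes and out of the NMD counts.

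Spike-in reads (5731 and 5156) were removed, leaving 824225 reads in replicate 1 and 656826 in replicate 2. Shares carry Wilson 95% intervals. Exons of all 669 members were the same in the deposited and reference annotation. Each annotated transcript with at least 10 reads in a gene with at least 20 reads per library was tested by Fisher's exact test. edgeR's quasi-likelihood test could not be fitted with 1 group. Named are the 15 most-read members, the 25 genes of highest share, members called, the 4 most-read per list (10 lists) and the most-read of each structure class; an item that this rule names is not reported here. Members and lists were chosen with earlier results of these data known. Python 3.11.15, numpy 2.4.6, pandas 2.3.3, scipy 1.17.1 and matplotlib 3.10.9 were used.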

Additional observations from a re-analysis of the deposited data

How the results depend on the processing

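With reads of annotated models alone as the denominator, the mean percent of reads on NMD transcripts was 0.289, the median share of the gene 2.81% and the number of genes of at least 20% 29, beside 15 when all reads of the gene were counted. With a gene minimum of 10 reads the median was 2.72% and 33 genes reached 20%; with 50 reads they were 1.20% and 9. Requiring 1 read in each library left 286 NMD transcripts, and 5 reads in sum left 160. A share of at least 10% was reached by 36 genes, of at least 50% by 2, and of at least 20% in each library by 9. Without either replicate the median lay between 2.14% and 2.20%. Ddx5-208 was the only NMD transcript called under all 5 settings of the test, with adjusted p between 3.24e-08 and 3.09e-07 (Fisher's exact test).

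Chosen after seeing the data, leaving out the 37 transcripts within 10 nt of a coding splice site left 632 transcripts and 14 genes of at least 20%, and the share of Cyth2 was then 0. Of the 25 genes' shares, 16 moved by more than the spread between libraries with the annotated denominator, most of all Dtnb (93.8%) and Cbarp (86.9%), which then stood above Crebzf and Cyth2 (54.8%). No paired analysis was possible because the libraries form 1 group. Depth limits most values here: 275 NMD transcripts rest on 1 read.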
